A study of Homo sapiens with 6 samples.

Results

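The BCL2 family decides whether a cell keeps the outer membrane of its mitochondria intact, and 10 of its genes were followed here: *BCL2*, *BCL2L1*, *MCL1*, *BCL2L11*, *BAX*, *BAK1*, *BBC3*, *PMAIP1*, *BID* and *BAD*. They were chosen by symbol, and each matched 1 gene among the 60609 genes of the count files. Poly(A) RNA came from 6 libraries of K562, an established human leukaemia line with erythroid features. In both groups, every endogenous copy of EP400, the scaffold ATPase of the TIP60 complex, carried a degradation tag, and cells were given 500 nM of the degrader dTAGV-1 for 24 h. The WT group (3 libraries) expressed WT EP400 from the *AAVS1* safe harbour locus, and the Delta-TRRAP group (3 libraries) expressed EP400 lacking the SANT and HD domains that hold TRRAP. Each complemented line was 1 clone by the methods of the study, so clone and EP400 mutation cannot be told apart, and the p-values measure the spread between libraries of 1 clone.

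The family works by binding between its own members. Anti-apoptotic proteins (BCL2, BCL-XL from *BCL2L1*, and MCL1) hold the effectors BAX and BAK in check, whereas BH3-only proteins (BIM from *BCL2L11*, PUMA from *BBC3*, NOXA from *PMAIP1*, BID and BAD) neutralize the anti-apoptotic proteins or activate the effectors. Free effectors open the outer membrane and release cytochrome c, which starts the caspase cascade. In K562 cells the BCR-ABL kinase and STAT5 are known to sustain *BCL2L1* and *MCL1* and to restrain BIM.

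WT libraries held 39966818 to 42616061 counts in genes and Delta-TRRAP libraries 35076835 to 38491513. Transcripts of the mitochondrial genome made up 3.18% to 3.71% of a WT library and 5.07% to 6.24% of a Delta-TRRAP library, a difference whose part in the results below was not tested. For pairs of libraries of a group, chi-square over its degrees of freedom was 4.93 to 15.5, so no library was a copy of another. *GATA1*, the master factor of erythroid cells, had 6605 ± 218 normalized counts in WT and 5815 ± 211 in Delta-TRRAP (SD, n = 3 each), a log2 fold change of -0.18 ± 0.05 (SE, edgeR adjusted p = 0.00505). The labels call the cells lymphoblasts, but lymphoid markers other than *CD3D* (434 ± 5.38 normalized counts in WT, SD, n = 3) were scarce. The 10 genes of that list summed to 510 to 523 normalized counts in the WT libraries and to 456 to 487 in the others. *CD3D* made up most of the sum in both groups, and *MS4A1* was at 0 in every library. Of 12 erythroid markers, 4 were lower and 5 higher at an adjusted p of 0.01. *ALAS2* (1241 to 16645 mean normalized counts), *HBZ* (1439 to 10665) and *HBE1* (9.71 to 41.1) were called higher, and *TFRC* (192094 to 90173) and *LMO2* (5089 to 2312) were called lower. The list summed to 229642 to 231926 normalized counts in the WT libraries and to 154770 to 159551 in the others. *TFRC* made up most of the sum in both groups, so the sum does not speak for the other markers. Of 10 fibroblast markers, 5 could be tested and 3 of these were called higher. *COL1A2* went from 5 counts over the 3 WT libraries to 2622, *PDGFRB* from 5 to 28 and *POSTN* from 0 to 50, while *LUM* and *PDGFRA* were at 0 in every library. The other tested markers, *COL1A1* (86 counts over the WT and 89 over the Delta-TRRAP libraries) and *DCN* (35 and 26), did not pass. The list summed to 35.5 to 58.0 normalized counts in the WT libraries and to 929 to 991 in the others, where *COL1A2* made up most of the sum. The part of these genes in the results below was not tested.

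All 10 members had a negative log2 fold change from WT to Delta-TRRAP, as had 48.0% of all genes tested. A normalized count is a count after TMM scaling of the libraries to a shared depth, and a gene is described as lower or higher where its Benjamini-Hochberg adjusted p, by the edgeR quasi-likelihood test over all 19114 genes tested, was 0.01 or less. Of the members, 9 were lower and 0 were higher, against 58.3% of all genes tested that passed, 27.6% lower and 30.7% higher. All 10 members averaged at least 100 normalized counts, and of the 11459 genes that did, 56.9% were negative and 40.0% were lower. *BID* alone was also called changed, which required a fold change of at least 2 besides the adjusted p, where 22.6% of all genes were called, 6.08% lower and 16.5% higher (13.0% of those averaging at least 100). At a fold change of 1.5 in place of 2, 5 members were called lower (*BID*, *BBC3*, *BAK1*, *BAD* and *BAX*), as were 13.4% of all genes. The median log2 fold change of the members was -0.54 (range -1.13 to -0.24), against 0.03 for all genes tested and -0.088 for those with a mean of at least 100. In bulk RNA, fewer cells of a kind and less RNA per cell cannot be told apart.

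**Figure D1:**
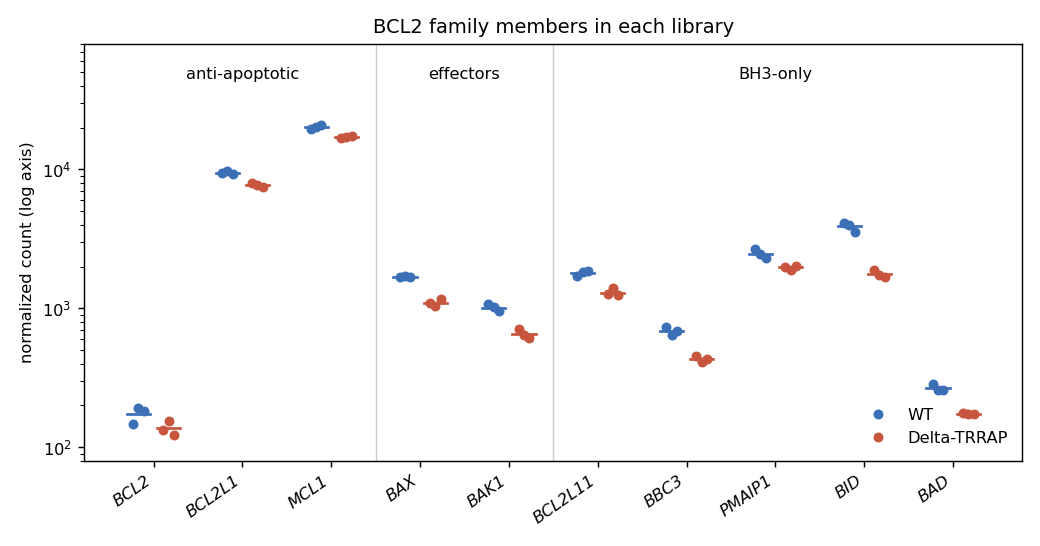
Normalized counts (log axis) of the 10 members in each of the 3 WT and 3 Delta-TRRAP libraries, grouped by role. Points are libraries and bars are group means. The groups overlap for *BCL2* and are apart for the other 9 genes, and the widest gap is at *BID* (means of 3895 and 1776).

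The number of members that passed depended on the scaling. Scaled by library size alone, the median log2 fold change of all genes moved from 0.03 to 0.17. Under that scaling all 10 members stayed negative and 7 were lower, without *BCL2*, *BCL2L1* (adjusted p 0.0116) and *MCL1* (adjusted p 0.0685), and *BID*, at a log2 fold change of -0.9998, came just short of the fold threshold. With upper quartile scaling 8 were lower, and *MCL1* had an adjusted p of 0.0259.

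*MCL1* and *BCL2L1*, the abundant anti-apoptotic genes, had the smallest fold changes of the 10 members. *MCL1* (ENSG00000143384.13, GRCh38 chromosome 1, 150560895 to 150579738), whose short-lived protein guards BAK, had 19469, 20228 and 20947 normalized counts in WT and 16814, 17068 and 17499 in Delta-TRRAP. The groups did not overlap, and *MCL1* fell by 15.3%, a log2 fold change of -0.24 ± 0.05 (SE, edgeR adjusted p = 0.000582). *BCL2L1* (ENSG00000171552.13, chromosome 20, 31664452 to 31723989) had 9418, 9679 and 9342 normalized counts in WT and 8039, 7749 and 7520 in Delta-TRRAP. Every Delta-TRRAP library lay below every WT library, with a log2 fold change of -0.29 ± 0.05 (SE, edgeR adjusted p = 9.99e-05), and *BCL2L1* fell by 18.0%. The count adds the transcripts of the long anti-apoptotic and the short pro-apoptotic splice form of *BCL2L1*, and likewise of *MCL1*, so isoforms cannot be told apart.

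*BCL2* (ENSG00000171791.13, chromosome 18, 63123346 to 63320128), the founding member, was scarce in these cells. It had 146.9, 191.9 and 182.1 normalized counts in WT and 133.4, 155.0 and 121.6 in Delta-TRRAP. One Delta-TRRAP library, replicate 2, lay above WT replicate 1, so the groups overlapped. At a log2 fold change of -0.34 ± 0.13 (SE, edgeR adjusted p = 0.0262), *BCL2* did not pass. It passed where WT replicate 1 (-0.46, edgeR adjusted p = 0.00648) or Delta-TRRAP replicate 2 (-0.44, edgeR adjusted p = 0.0072) was left out, whereas the 4 other fits that each left out 1 library gave adjusted p of 0.072 to 0.104.

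Both effector genes fell by about the same amount. *BAX* (ENSG00000087088.20, chromosome 19, 48954815 to 48961798) had 1674, 1718 and 1670 normalized counts in WT and 1088, 1038 and 1170 in Delta-TRRAP. Its log2 fold change was -0.62 ± 0.06 (SE, edgeR adjusted p = 1.15e-07), and the highest Delta-TRRAP library was well below the lowest WT library. *BAK1* (ENSG00000030110.13, chromosome 6, 33572547 to 33580293) had 1066, 1014 and 957.4 normalized counts in WT and 711.9, 647.3 and 610.3 in Delta-TRRAP. Its groups were apart as well, and its log2 fold change was -0.62 ± 0.07 (SE, edgeR adjusted p = 9.02e-07). *BAX* fell by 34.9% and *BAK1* fell by 35.1%, from loci on different chromosomes.

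All 5 BH3-only members were lower, by unequal amounts. *BID* (ENSG00000015475.18, chromosome 22, 17734138 to 17774770), which encodes the substrate through which caspase-8 links death receptors to mitochondria, had 4133, 4009 and 3543 normalized counts in WT and 1887, 1750 and 1690 in Delta-TRRAP. The 3 Delta-TRRAP libraries lay close together and far below WT. *BID* fell by 54.4%, a log2 fold change of -1.13 ± 0.06 (SE, edgeR adjusted p = 5.45e-10), and leaving out any 1 library kept it called. *BBC3* (ENSG00000105327.17, chromosome 19, 47220822 to 47232766), encoding PUMA, had 730.6, 647.5 and 689.8 normalized counts in WT and 457.0, 412.4 and 431.6 in Delta-TRRAP. It fell by 37.1%, with a log2 fold change of -0.67 ± 0.07 (SE, edgeR adjusted p = 6.26e-07) and no overlap between groups.

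*BAD* (ENSG00000002330.13, chromosome 11, 64269830 to 64284704), the BH3-only protein that survival kinases hold inactive by phosphorylation, was the scarcest of the BH3-only members. It had 284.7, 259.0 and 259.4 normalized counts in WT and 175.5, 174.5 and 172.4 in Delta-TRRAP. The Delta-TRRAP libraries were nearly identical, and the log2 fold change was -0.62 ± 0.09 (SE, edgeR adjusted p = 1.89e-05). *BCL2L11* (ENSG00000153094.23, chromosome 2, 111119378 to 111168444), encoding BIM, had 1716, 1817 and 1861 normalized counts in WT and 1267, 1390 and 1238 in Delta-TRRAP. Its groups did not overlap either, and it fell by 27.8% (log2 fold change -0.47 ± 0.06, SE, edgeR adjusted p = 3.64e-06). *PMAIP1* (ENSG00000141682.11, chromosome 18, 59899996 to 59904305), encoding NOXA, the partner that targets MCL1, had 2668, 2461 and 2293 normalized counts in WT and 1994, 1899 and 2010 in Delta-TRRAP. It was the least changed BH3-only member, with a log2 fold change of -0.33 ± 0.06 (SE, edgeR adjusted p = 0.000144). In all, 9 of 10 members had groups that did not overlap, with Delta-TRRAP below. Of all genes tested, 71.1% had groups that did not overlap and 33.7% had Delta-TRRAP below, or 45.7% of those averaging at least 100.

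Some members overlap a gene on the opposite strand, and counting by strand keeps these apart in principle. *ADAMTSL4*, opposite *MCL1*, had 9406 counts over the WT libraries and 16616 over the Delta-TRRAP libraries. *GPR137*, opposite *BAD*, had 754 and 1455 counts, and *MIR4435-2HG*, opposite *BCL2L11*, had 9543 and 8908 counts. *ADAMTSL4* and *GPR137* went the other way from the member they face.

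Levels of different genes were compared per kilobase of annotated exon, with the TMM-adjusted size of each library scaled to 1000000 counts. Exon lengths cover all annotated isoforms of a gene and came from a later GENCODE release than the counts. The order below and the sums by role were not repeated with another gene length. On this scale *MCL1* was the most abundant member in WT, at 83.5 ± 3.05, followed by *BCL2L1* at 58.1 ± 1.08 and *PMAIP1* at 29.1 ± 2.21 (SD, n = 3 each). *BID* (22.7 ± 1.81), *BAX* (16.8 ± 0.266) and *BAK1* (11.8 ± 0.631) came next, and *BCL2L11* (6.85 ± 0.282), *BBC3* (5.56 ± 0.335) and *BAD* (4.03 ± 0.222) were lower (SD, n = 3 each). *BCL2* was last, at 0.354 ± 0.0482 (SD, n = 3). No neighbours in this order overlapped between libraries in WT. In Delta-TRRAP the order was the same but for *BID* (10.3 ± 0.585) and *BAX* (10.9 ± 0.66), which exchanged places and overlapped (SD, n = 3 each).

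Summed by role, the pro-apoptotic members were lower relative to the anti-apoptotic members in Delta-TRRAP (a description, with no test). The 3 anti-apoptotic members summed to 141.9 ± 3.08 in WT and 118.6 ± 0.341 in Delta-TRRAP, and the 5 BH3-only members to 68.2 ± 3.998 and 44.5 ± 0.937 (SD, n = 3 each). All 5 BH3-only members fell, *BID* the most, from a mean of 22.7 to 10.3, and the ratio below was not computed without *BID*. The ratio of the BH3-only sum to the anti-apoptotic sum was 0.521, 0.477 and 0.445 in the WT libraries and 0.383, 0.370 and 0.373 in the Delta-TRRAP libraries. The effector sum over the anti-apoptotic sum was 0.210, 0.201 and 0.192 in WT and 0.160, 0.151 and 0.158 in Delta-TRRAP. Neither ratio overlapped between groups, and both are the same under any scaling of the libraries. These are ratios of transcripts, and protein levels were not measured.

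Within the anti-apoptotic genes the make-up moved little among members. Of the summed level per kilobase of *MCL1*, *BCL2L1*, *BCL2*, *BCL2L2*, *BCL2A1* and *BCL2L10*, *MCL1* made up 56.3% ± 0.976 in WT and 54.6% ± 1.21 in Delta-TRRAP, and *BCL2L1* made up 39.2% ± 1.04 and 36.7% ± 1.14 (SD, n = 3 each). The share of *MCL1* overlapped between groups and that of *BCL2L1* did not, by a narrow margin (37.96% in the lowest WT and 37.83% in the highest Delta-TRRAP library). *BCL2* contributed 0.238% ± 0.0281 and 0.215% ± 0.0273 (SD, n = 3 each). The share of *BCL2L2*, which encodes the anti-apoptotic protein BCL-W, went without overlap from 4.26% ± 0.0993 to 8.30% ± 0.132 (SD, n = 3 each). *BCL2L2* was higher by 0.77 ± 0.05 on the log2 scale (SE, edgeR adjusted p = 3.20e-09), short of a fold change of 2. A read-through gene with *PABPN1* overlaps it on the same strand, and reads shared by both would not be counted, so its level is uncertain. *PPP1R3E*, on the opposite strand, also overlaps *BCL2L2* and had 727 counts over the WT libraries and 2173 over the Delta-TRRAP libraries. The part of opposite-strand reads in *BCL2L2* was not tested. *BCL2A1* had 6 counts over the WT libraries and 23 over the Delta-TRRAP libraries, and *BCL2L10* had none in any library.

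**Figure D2:**
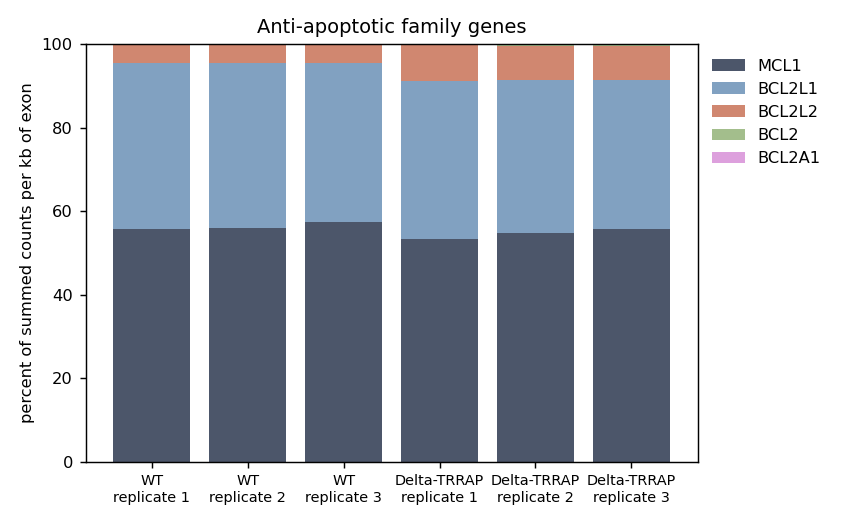
Percent of the summed counts per kb of exon taken by each anti-apoptotic family gene (stacked bars from 0 to 100%), in each library. *MCL1* and *BCL2L1* fill most of every bar, *BCL2L2* grows from 4.26% in WT to 8.30% in Delta-TRRAP on average, and *BCL2* and *BCL2A1* are too small to see.

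Some members lie in stretches where many genes were lower, so each was set beside its neighbours, the other genes within 1 Mb that averaged at least 100 normalized counts. *BCL2L1* lies on the long arm of chromosome 20. The median over its 12 neighbours was -0.58 (log2 fold change), and 10 of them were below *BCL2L1* itself. *BBC3* and *BAX* lie near each other on the long arm of chromosome 19, with medians of -0.36 over 25 neighbours and -0.37 over 50 neighbours, some of them shared. The difference from these medians was -0.31 for *BBC3* and -0.25 for *BAX* on the log2 scale, and 18 of the 50 neighbours were below *BAX*. *BCL2* matched the median of its 6 neighbours (-0.36). *PMAIP1*, with 2 such neighbours, and *BCL2L11*, with 7, had few, with medians of -0.24 and -0.31. With a minimum mean count of 20 in place of 100, the median around *BBC3* was -0.17, around *BCL2L11* -0.091, around *MCL1* 0.13 and around *BAD* 0.012.

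*BID* stood apart from its surroundings. The median log2 fold change over its 12 neighbours was 0.36 (0.30 with a minimum mean count of 20), 8 of them were higher and 1 was lower at an adjusted p of 0.01, and none was below *BID*. *BAD* (median -0.06 over 47 neighbours), *BAK1* (-0.20 over 24) and *MCL1* (0.016 over 40) were below the median around them too. The differences were -0.56, -0.42 and -0.26 on the log2 scale. Unlike *BID*, these members had neighbours below them: 8 below *BAD*, 2 below *BAK1* and 11 below *MCL1*. With a window of 5 Mb the median around *BID* was -0.00087 over 62 genes and that around *BAK1* -0.05 over 103 genes.

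**Figure D3:**
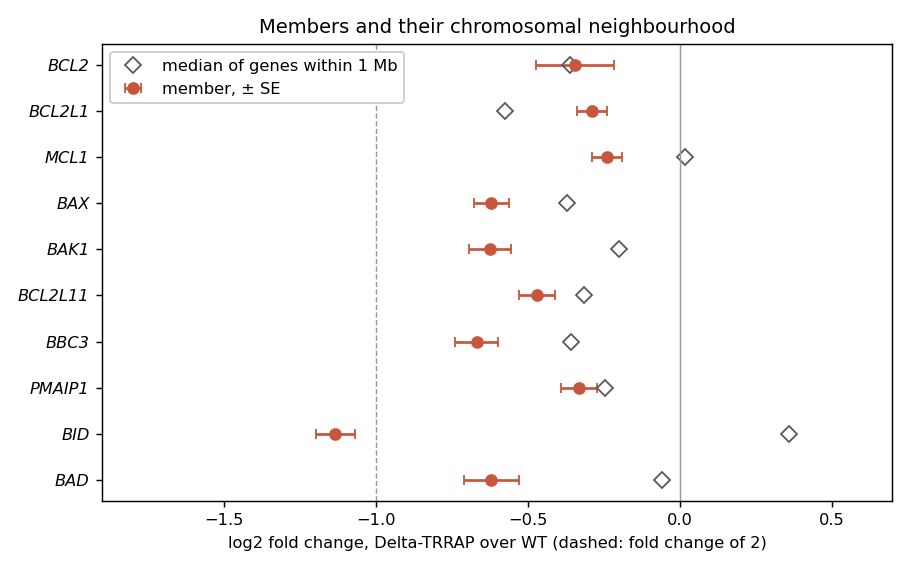
Log2 fold change of each member, Delta-TRRAP over WT (filled points, bars are SE), beside the median of the expressed genes within 1 Mb (open diamonds). The dashed line is a fold change of 2. *BID* (-1.13) is far from its neighbours' median of 0.36, *BCL2L1* (-0.29) lies above a median of -0.58, and *BCL2* lies on its median.

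Promoters were searched because TRRAP is a known cofactor of MYC, which binds the E-box CACGTG. RefSeq windows (GRCh38.p14) of the 250 bases before the start were found for 9 of the 10 members, all but *MCL1*, 15 windows in all. An E-box was present in 4 of the 15 windows, for *BAX*, *BBC3* and *BID*, where 6.34% of 35116 windows of all genes held one. *BAX* had 4, of which 2 lie before every annotated exon, and the single E-box of *BID* falls in 2 overlapping windows of internal starts. These 3 genes are shown because they hold the E-box, with *BCL2L11* beside them for its FOXO site (GTAAACA, in 2.98% of all windows). The window of *BCL2L11* also belongs to an internal start, since the annotated gene begins upstream of it, at 111119378. Letters run 5′ to 3′ on the strand of the gene, annotated exons are left out, and capitals mark E-boxes, the FOXO site and CCAAT boxes (read on either strand).
*BAX* promoter, chr19:48954625-48954814, plus strand: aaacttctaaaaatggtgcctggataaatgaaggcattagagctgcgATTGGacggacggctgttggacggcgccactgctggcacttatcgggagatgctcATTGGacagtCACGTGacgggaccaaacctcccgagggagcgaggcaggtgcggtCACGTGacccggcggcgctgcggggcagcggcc
*BBC3* promoter, chr19:47232767-47232917, minus strand: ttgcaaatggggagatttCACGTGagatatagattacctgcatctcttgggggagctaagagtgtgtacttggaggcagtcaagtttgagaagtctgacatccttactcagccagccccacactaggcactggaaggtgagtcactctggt
*BID* promoter of an internal start, chr22:17774043-17774292, minus strand: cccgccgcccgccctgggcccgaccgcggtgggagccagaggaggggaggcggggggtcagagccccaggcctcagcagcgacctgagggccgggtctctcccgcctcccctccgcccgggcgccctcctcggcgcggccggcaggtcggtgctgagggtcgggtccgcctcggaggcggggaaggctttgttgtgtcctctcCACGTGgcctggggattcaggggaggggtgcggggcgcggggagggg
*BCL2L11* promoter, chr2:111120664-111120913, plus strand: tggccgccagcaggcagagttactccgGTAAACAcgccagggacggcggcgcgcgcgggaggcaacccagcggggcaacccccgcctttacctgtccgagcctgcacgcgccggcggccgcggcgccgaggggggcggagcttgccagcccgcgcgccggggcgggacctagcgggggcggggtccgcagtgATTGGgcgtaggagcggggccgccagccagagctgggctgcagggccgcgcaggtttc

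A CCAAT box was present in 6 of the 15 member windows (5 members) and in 11240 of the 35116 windows of all genes. A GC box (GGGCGG) was present in 10 of the 15 (6 members) and in 42.6% of all windows. The STAT site TTCNNNGAA (6.57% of windows) and the E2F site TTTCGCGC (0.439%) matched none of the 15 windows, and *MCL1* was not searched. Both strands were searched, and a match of letters is not evidence of binding. *MYC* itself had 8769 ± 268 normalized counts in WT and 9016 ± 223 in Delta-TRRAP (SD, n = 3 each), with a log2 fold change of 0.04 ± 0.05 (SE, edgeR adjusted p = 0.49).

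The rest of the BCL2 family went in both directions. Of 13 further genes, 8 could be tested, of which 2 were lower, 4 were higher and 2 did not pass, with a median log2 fold change of 0.43. *BMF*, a BH3-only gene whose protein is known for binding the cytoskeleton, was called higher, from 110.8 ± 12.6 to 398.3 ± 8.89 normalized counts (SD, n = 3 each), a 3.59-fold rise with a log2 fold change of 1.84 ± 0.10 (SE, edgeR adjusted p = 2.23e-10). *BOK*, an effector-like gene, was called lower, from 109.1 ± 12.3 to 37.8 ± 10.6 (SD, n = 3 each), with a log2 fold change of -1.52 ± 0.18 (SE, edgeR adjusted p = 2.81e-06). Measured per kilobase, *BMF* reached 0.0189, 0.0237 and 0.0273 of the level of *BID* in the WT libraries and 0.174, 0.186 and 0.186 in the Delta-TRRAP libraries, so it remained the scarcer transcript. *BNIP3L* (0.86 ± 0.05), *BCL2L13* (0.55 ± 0.05) and *BCL2L12* (-0.72 ± 0.06), given as log2 fold change ± SE and named after their values were seen, made up the others that passed besides *BCL2L2*. *BCL2A1*, *BCL2L10*, *BIK*, *HRK* and *BCL2L14* averaged under 5 normalized counts and were not tested. *HRK* had 23 counts over the WT libraries and 3 over the Delta-TRRAP libraries.

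**Figure D4:**
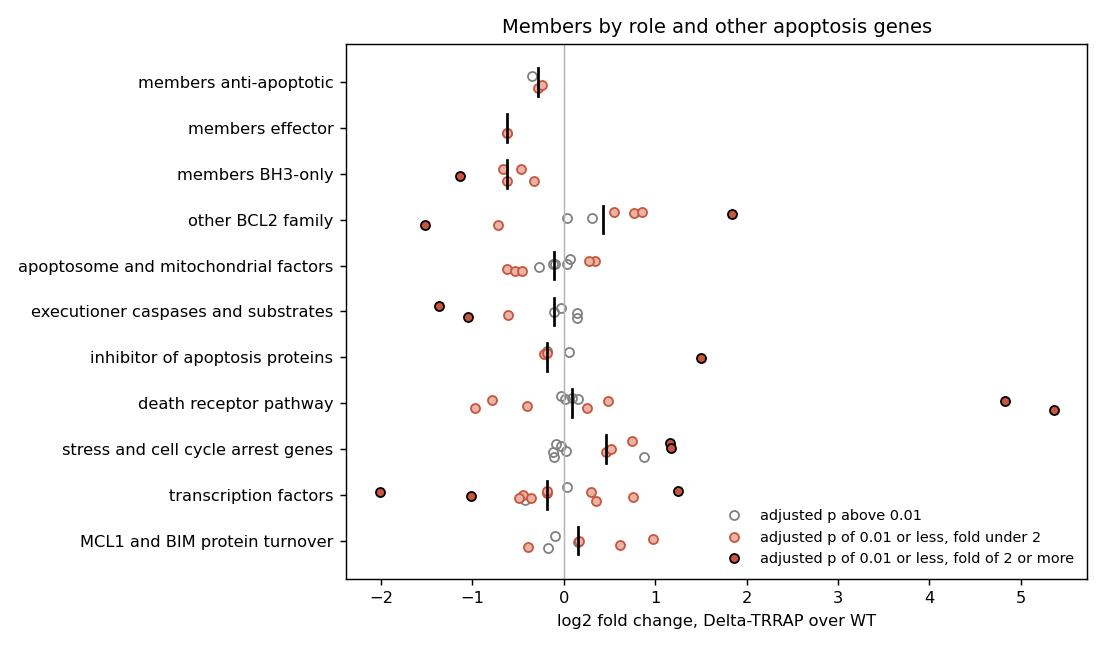
Log2 fold change, Delta-TRRAP over WT, of each tested gene (points) of the members by role and of 8 other lists of apoptosis genes, with the median of each list as a black bar. Vertical scatter within a list has no meaning. The 10 members all lie below 0, whereas the other lists spread to both sides, with *FAS* (5.36) and *TNFSF10* (4.83) farthest to the right.

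Across 82 other genes of the pathway, chosen by hand in 8 lists, 72 were tested, 21 were lower and 23 were higher, and the median log2 fold change was 0.017. Of these, 12 were called changed, 5 lower and 7 higher. Over all genes tested, 27.6% were lower and 30.7% were higher. The share called over all genes was 22.6%, with 6.08% lower and 16.5% higher. Downstream of the mitochondria, 2 of 7 genes in the list of executioner caspases and their substrates were called lower and *PARP1*, named after its values were seen, was lower as well. *CASP6*, an executioner caspase that cuts nuclear lamins, fell from 2297 ± 119 to 893.5 ± 50.1 normalized counts and *DFFB*, the nuclease that cuts DNA in dying cells, from 786.8 ± 61.9 to 379.3 ± 20.3 (SD, n = 3 each). Their log2 fold changes were -1.36 ± 0.06 and -1.05 ± 0.07 (SE), with edgeR adjusted p of 2.74e-11 and 7.09e-09. The call of *DFFB* rested on the scaling and the filter: its log2 fold change was -0.92 by library size alone, -0.95 by upper quartile and -0.98 with a minimum mean count of 50, short of a fold change of 2, so that 1 gene of the list stayed called. By library size alone 11 pathway genes were called, without *DFFB* and *STAT5A* (-0.89) and with *BTRC* (1.11).

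Among the 10 apoptosome and mitochondrial factors none was called, 3 were lower and 2 were higher. *AIFM1*, encoding a mitochondrial flavoprotein, had the lowest adjusted p (-0.53 ± 0.05, SE, edgeR adjusted p = 1.10e-07). Of 5 tested inhibitors of apoptosis proteins, 2 were lower and *BIRC3*, an NF-kappaB target, was called higher, from 32.2 ± 2.80 to 90.9 ± 11.7 normalized counts (SD, n = 3 each), or 2.82-fold (SE 0.171 on the log2 scale, edgeR adjusted p = 1.47e-06). In the list of MCL1 and BIM turnover genes none was called, 1 was lower and 3 were higher, and *BTRC*, a subunit of a ubiquitin ligase, had the lowest adjusted p (0.98 ± 0.06, SE, edgeR adjusted p = 1.56e-09). It passed a fold change of 2 without WT replicate 2 (1.001) or without Delta-TRRAP replicate 3 (1.03). It also passed by library size alone (1.11), by upper quartile (1.08) and with a minimum mean count of 50 (1.05).

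The death receptor list held the largest rises of the pathway. *FAS*, the receptor for FAS ligand, had 14 counts over the 3 WT libraries and 586 over the 3 Delta-TRRAP libraries, a 41.1-fold rise with a log2 fold change of 5.36 ± 0.21 (SE, edgeR adjusted p = 6.54e-12). *TNFSF10*, which encodes the ligand TRAIL, had 16 and 461 counts, a 28.4-fold rise with a log2 fold change of 4.83 ± 0.22 (SE, edgeR adjusted p = 4.19e-11). *FAS* overlaps *ACTA2* on the opposite strand, and *ACTA2* went from 1 count to 1585. Reads were counted by strand, and the part of opposite-strand reads in *FAS* was not tested. Of 11 tested genes in this list 4 were higher and 3 were lower. The lower genes, named after their values were seen, were the receptors *TNFRSF1A* (log2 fold change -0.97 ± 0.07) and *TNFRSF10A* (-0.79 ± 0.05), a receptor for TRAIL, and the adaptor *FADD* (-0.41 ± 0.06, SE each), so receptors of this list went in both directions. *TNFRSF1A* passed a fold change of 2 where Delta-TRRAP replicate 1 (-1.01) or Delta-TRRAP replicate 2 (-1.02) was left out.

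Among stress and cell cycle arrest genes, 5 of 11 were higher and 0 were lower, against 30.7% and 27.6% of all genes tested. *CDKN1A*, the cyclin-dependent kinase inhibitor p21, rose from 445.5 ± 27.5 to 993.4 ± 54.9 normalized counts and *GADD45A*, a stress gene, from 3976 ± 110 to 8932 ± 622 (SD, n = 3 each). Their log2 fold changes were 1.16 ± 0.07 and 1.17 ± 0.06 (SE), with edgeR adjusted p of 8.12e-10 and 1.09e-10.

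Of 13 transcription factor genes with known targets in the family, 7 were lower, 4 were higher and 3 were called. *STAT5A*, whose protein sustains *BCL2L1*, fell from 21796 ± 491 to 10751 ± 239 normalized counts, with a log2 fold change of -1.02 ± 0.05 (SD, n = 3 each, then SE, edgeR adjusted p = 8.30e-11), and it was not called under the same 3 settings as *DFFB*. *RUNX1*, a haematopoietic factor, fell from 6142 ± 274 to 1522 ± 84.6, with -2.01 ± 0.06 (SE, edgeR adjusted p = 2.19e-13). *FOXO3*, a known activator of *BCL2L11* and *BBC3*, rose from 1409 ± 82.6 to 3343 ± 147, with 1.25 ± 0.06 (SE, edgeR adjusted p = 4.80e-11), and both of those genes were lower. Related genes, named after their values were seen, changed less: *STAT5B* by -0.19 ± 0.05, *FOXO4* by 0.35 ± 0.05 and *FOXO1* by -0.42 ± 0.16 (log2 fold change ± SE). *FOXO1* did not pass. Whether the level of any of these factors bears on the members was not tested.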

How the data were processed

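Poly(A) RNA of 6 K562 libraries was analysed, and groups and replicate numbers came from the sample titles. The authors deposited raw counts per gene: reads mapping to 1 place in hg38 (STAR) were counted by htseq-count (HTSeq 2.0.2, per the labels) on the reverse strand against GENCODE genes. Reads shared by near-identical genes or by overlapping genes of the same strand are therefore missing. The deposited table of normalized values, with 3 columns of another condition, and the authors' own fold changes and p-values were not used.

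Counts were tested with edgeR 4.0.16 (R 4.3.3) by the quasi-likelihood F test with TMM factors, group as the only term, and Benjamini-Hochberg adjustment over 19114 genes, those averaging at least 5 normalized counts. Thresholds (adjusted p of 0.01, fold change of 2) follow the study's methods. Members, lists and motifs were chosen with earlier results of these data known, and the lists were written by hand. Some genes of the lists are not reported here and were left out of the list counts. All members were named, then every called gene of each pathway list or, with none called, that with the lowest adjusted p, and *GATA1* and called genes of the marker lists. *BCL2L2*, *MYC*, *CD3D* and genes overlapping others were named outside this rule, after their values were seen. Positions and exon lengths came from GENCODE release 44 (GRCh38), a later release than the study used for counting, with 19041 of the tested genes matched. The fit was tested on simulated data. Alternatives were DESeq2 1.42.0, limma-voom (limma 3.58.1), other scalings, filters and thresholds, the replicate block, and leaving out each library.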

Additional observations from a re-analysis of the deposited data

How the results depend on the processing

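All 10 members kept a negative log2 fold change in all 17 alternatives. The member count called was 0 with library size scaling, 5 at a fold change of 1.5 and 9 without a fold threshold. Over all genes, 1964 were called with a minimum mean count of 50, 6750 at a fold change of 1.5 and 11149 without a fold threshold, and other pathway genes numbered 23 and 44 at the latter 2 settings, since those rules test fewer genes or are looser. With the longest transcript as gene length, *BCL2L1* made up 37.8% of the anti-apoptotic level in WT and 35.4% in Delta-TRRAP, *MCL1* 57.6% in WT, and *BCL2* 0.301% and 0.272%. *BCL2*, with 115 to 200 counts a library, is the member most limited by depth. Same-numbered libraries did not deviate together (their deviations from the group means correlated at -0.035 to -0.0108), so a shared number is no pairing, and with the replicate block 4184 genes, 1 member among them, were called and 9 members were lower.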
